A study of Homo sapiens with 12 samples.

Results

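The genes for mitochondrial ribosomal proteins were taken as all genes whose symbol is MRPL or MRPS followed by digits and at most 1 letter. Of the 77 RefSeq genes that fit this rule, 74 had a probe set named for 1 gene only, among 22411 genes measured this way. By symbol, 48 belong to the large subunit (MRPL) and 26 to the small subunit (MRPS), and they lie on 21 chromosomes. The other 3, MRPL30, MRPS6 and MRPS16, share their probe sets with a neighbouring gene and entered no comparison.

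RNA came from SW1990 and PANC-1, established human pancreatic ductal adenocarcinoma cell lines, on 12 arrays in 4 groups of 3. By the labels and methods, the cells of the GLI1 arrays in each line were given a plasmid carrying the cDNA of GLI1, a zinc finger activator that Hedgehog signalling switches on, with a lipid reagent, and those of the control arrays an empty plasmid. The arrays are named LIP, LIP-1 and LIP-2 in both GLI1 groups, a, b and c in the SW1990 control group, and S8, S10 and S11 in the PANC-1 control group. No source used here ties the arrays to separate cultures, so p-values measure the spread between arrays, which may be technical. A transient transfection reaches part of the cells, and an array gives the mean of all of them, so that a change in some cells and a smaller change in every cell cannot be told apart.

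GLI1 itself was lower where the label says it was transfected, and every group is therefore called by its label. Its log2 values after normalization averaged 6.89 in SW1990 arrays labelled GLI1, against 11.81 in those labelled control. In PANC-1 they averaged 7.93 in arrays labelled GLI1, against 11.50 in those labelled control. In each line the groups did not overlap. The means labelled GLI1 were thus 30.2-fold lower in SW1990 and 11.9-fold lower in PANC-1. The labels may be exchanged, or the probe set may not read the plasmid's cDNA while the cells' own GLI1 RNA fell. Which of these holds was not tested. Rises and falls below are given for arrays labelled GLI1, set against those labelled control, and with exchanged labels each rise would be a fall and each fall a rise.

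Of the ductal epithelial markers, KRT18 averaged 12.48 and 12.47 in the GLI1 and control arrays of SW1990, and 12.11 and 11.98 in those of PANC-1, whereas the leukocyte marker PTPRC lay between 3.42 and 3.46 in all 4 group means. EPCAM averaged 10.80 and 10.85 in the GLI1 and control arrays of SW1990, and 6.99 and 6.89 in those of PANC-1. Of the 17 markers of these and other pancreatic cell types, the acinar marker PRSS1 differed between the labels in SW1990 (6.86 in arrays labelled GLI1 and 6.12 in those labelled control, adjusted p = 0.000106 from limma). In PANC-1, 3 were higher in the arrays labelled GLI1, namely KRT19 (8.82 against 8.22 in those labelled control, adjusted p = 0.0233), CD14 of leukocytes (6.64 against 6.17, adjusted p = 0.0181) and COL1A1 of fibroblasts (9.49 against 8.52, adjusted p = 0.0365, all from limma). KRT8 averaged 11.54 in the PANC-1 arrays labelled GLI1 and 10.95 in those labelled control (adjusted p = 0.208 from limma). The part of these markers in the results was not tested. The PANC-1 control array S8 stood apart from its group, with correlations of 0.987 and 0.988 to S10 and S11 over all genes, whereas S10 and S11 correlated at 0.997. The results for PANC-1 on the ribosomal protein genes and the gene lists are therefore also given without S8. Without it, KRT8, KRT18 and EPCAM were called higher in the arrays labelled GLI1 as well (log2 differences 1.01, 0.31 and 0.41).

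The mitochondrial ribosome translates the small set of respiratory chain proteins that mitochondrial DNA encodes. Its RNAs come from mitochondrial DNA, but all of its proteins are encoded in the nucleus, made in the cytosol and imported. Part of these proteins have counterparts in the bacterial ribosome and support the ribosomal RNA around the decoding site, the peptidyl transferase centre and the exit tunnel, and the others were added in the mitochondrial lineage. Of the 74 genes, 42 encode proteins with a bacterial counterpart and 31 encode mitochondria-specific proteins, and MRPL55 was not placed. Names do not always follow the structure, since the proteins of MRPS30 and MRPS18A lie in the large subunit.

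Promoters of such genes are known to carry sites for ETS factors such as GABPA, for NRF1 and for YY1. Windows of 250 bases before to 50 after a start site (RefSeq, GRCh38.p14) were found for 66 of the 74 genes, 82 windows in all, and each motif was sought on both strands. The ETS motif CCGGAAG lay in 37.8% of the 82 windows and in 10.3% of all 35116 windows. The YY1 motif AAGATGGCG lay in 15.9% of the windows of these genes and 1.75% of all windows, the NRF1 motif GCGCATGCG in 3.66% and 1.92%, and the E-box CACGTG, the site of MYC and related factors, in 11% and 7.26%. No window held the ETS and YY1 motifs in an overlapping position. A match describes letters and was not tested as a binding site. The 28 genes with the ETS motif had a median log2 difference between labels of 0.17 in SW1990 and 0.076 in PANC-1, whereas the 38 without it had 0.083 and 0.046. In SW1990, 9 of the 28 genes rose and 11 of the 38, where 9.3% of all genes did so. Without S8, the PANC-1 medians were 0.026 with the motif and -0.059 without it. Then 4 of the 28 rose and 5 fell, and 4 of the 38 rose and 11 fell, beside 13.3% of all genes higher and 11% lower. The 13 genes with the YY1 motif had medians of 0.087 in SW1990 and -0.10 in PANC-1, and the other 53 had 0.13 and 0.082, and 1 of the 13 and 19 of the 53 rose in SW1990. Without S8, the PANC-1 medians were -0.26 with the YY1 motif and 0.028 without it, and 8 of the 13 and 8 of the 53 genes fell. None of the 13 and 8 of the 53 rose. For the 9 genes with the E-box the medians were 0.10 and -0.073, against 0.11 and 0.055 for the other 57, and 1 of the 9 and 19 of the 57 rose in SW1990. Left without S8, the PANC-1 medians were -0.14 with the E-box and -0.0050 without it. There, 1 of the 9 rose and 4 fell, and 7 of the 57 rose and 12 fell. None of the 3 genes with the NRF1 motif rose in SW1990, and 1 rose in PANC-1 without S8. Differences between genes with and without a motif were not tested.
The following promoter stretches, 5′ to 3′ on the strand of the gene, run from 80 bases before to 20 after a start site, with the ETS motif, in either orientation, in capitals. MRPS12 and MRPS21 are shown because they rose in both lines and hold it.
MRPS12, chr19:38930864-38930963, plus strand: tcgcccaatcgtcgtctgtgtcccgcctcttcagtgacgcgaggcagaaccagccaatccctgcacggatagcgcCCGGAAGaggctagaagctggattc
MRPS21, chr1:150293781-150293880, plus strand: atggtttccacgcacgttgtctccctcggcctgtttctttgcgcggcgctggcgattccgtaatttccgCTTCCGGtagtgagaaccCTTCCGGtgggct
MRPS34, MRPL54 and MRPL47 were chosen after their values were seen, as the gene with the largest rise in PANC-1, the gene whose difference was not the same in the lines, and a gene that fell in SW1990.
MRPS34, chr16:1773115-1773214, minus strand: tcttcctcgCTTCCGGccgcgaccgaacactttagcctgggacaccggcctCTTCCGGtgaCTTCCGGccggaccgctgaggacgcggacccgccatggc
MRPL54, chr19:3762602-3762701, plus strand: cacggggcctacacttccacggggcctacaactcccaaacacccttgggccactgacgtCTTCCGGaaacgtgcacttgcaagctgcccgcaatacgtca
MRPL47, chr3:179604619-179604718, minus strand: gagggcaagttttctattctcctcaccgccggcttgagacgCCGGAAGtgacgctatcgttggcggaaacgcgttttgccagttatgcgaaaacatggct
Within these stretches the motif lay once in MRPS12, MRPL54 and MRPL47, 2 times in MRPS21 and 3 times in MRPS34. The genes were chosen by their values, so the stretches cannot show whether the motif goes with a rise or a fall.

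In SW1990, 22 of the 74 genes rose and 2 fell in the arrays labelled GLI1, against those labelled control (limma, adjusted p under 0.05 over all genes). That is 29.7% higher and 2.70% lower, beside 9.3% of all genes higher and 9.62% lower. The rises were between 1.14- and 1.70-fold and none of the 74 genes reached 2-fold. The median log2 difference was 0.10 over the 74 genes and 0.0083 over all genes. Of the 74 differences 55 were above 0, beside 11736 of the 22411 over all genes. In 35 genes every GLI1 array lay above every control array, where 20.1% of all genes did so, in 12 every one lay below, where 19.9% did so, and in 27 the groups overlapped.

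**Figure D1:**
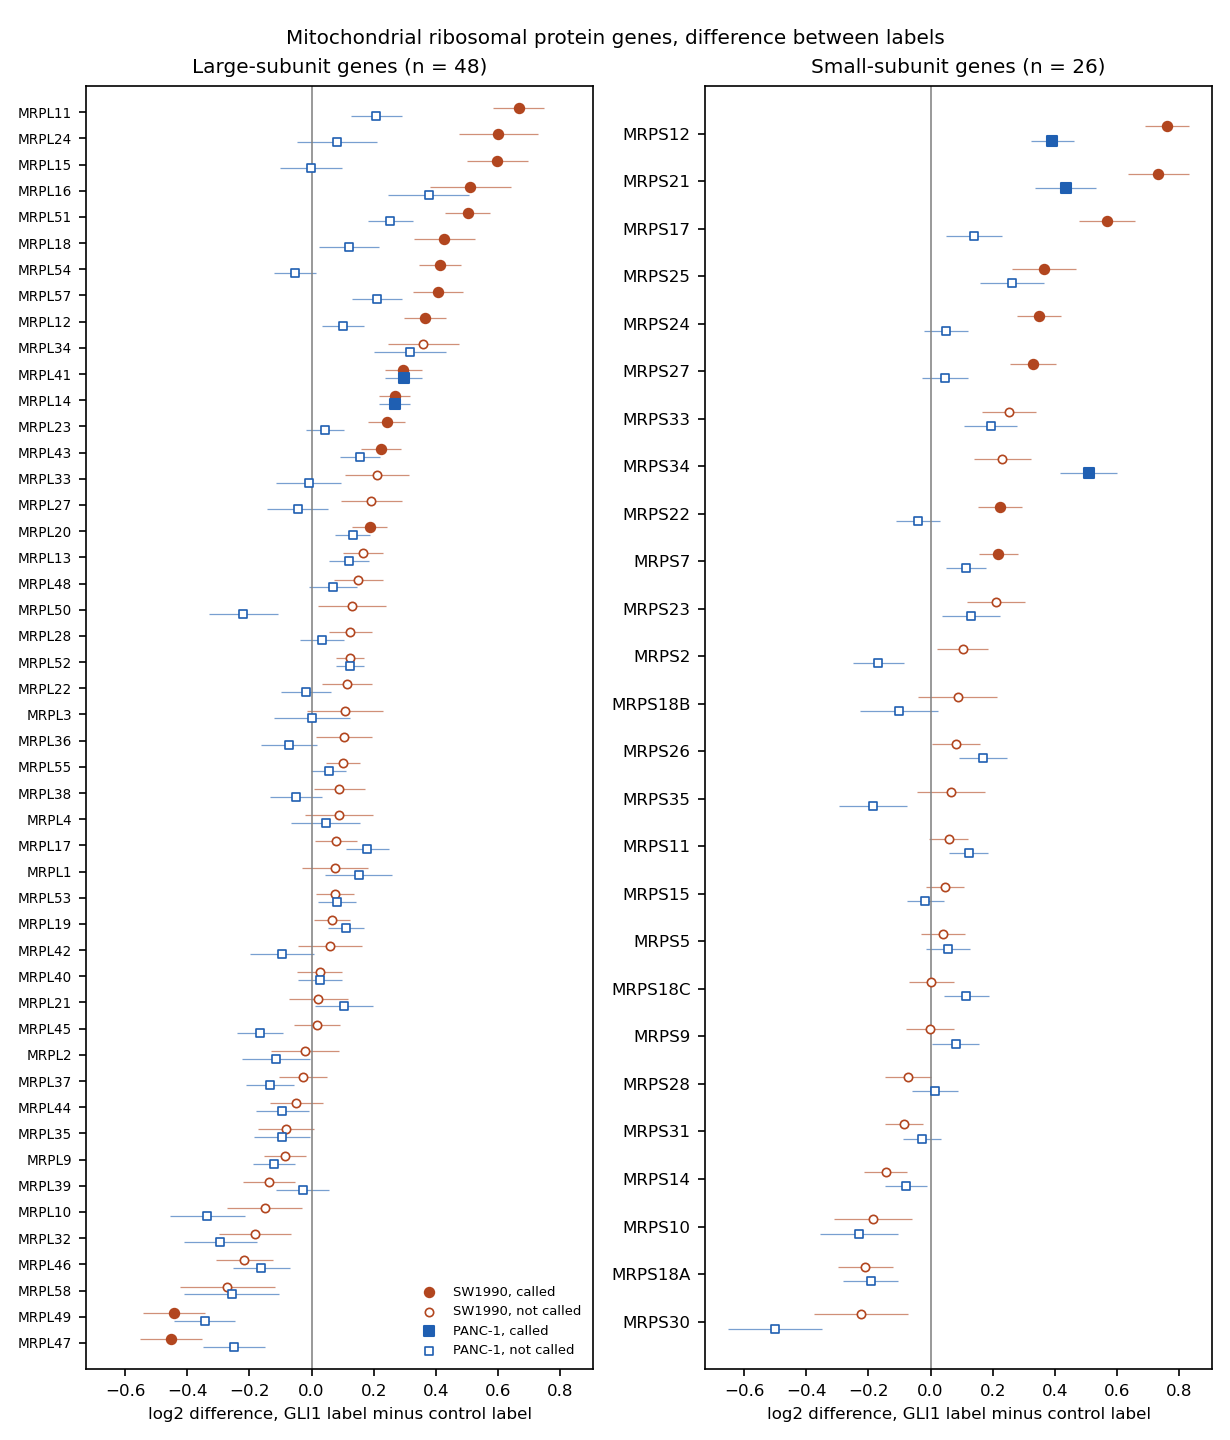
Log2 difference between the arrays labelled GLI1 and those labelled control for each of the 48 large-subunit and 26 small-subunit genes, in SW1990 (circles) and PANC-1 (squares), with the standard error as a bar and filled symbols for genes called at an adjusted p under 0.05. In SW1990, 22 filled symbols lie to the right of 0 and 2 to the left, and in PANC-1 the 5 filled symbols all lie to the right.

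The largest rise in SW1990 was that of MRPS12 (chromosome 19, 38930944 to 38933168 in GRCh38.p14, as for all gene positions here), a protein beside the decoding site whose bacterial counterpart is altered in streptomycin resistance. Its normalized log2 values were 8.49, 8.44 and 8.35 in the arrays labelled GLI1 and 7.55, 7.65 and 7.80 in those labelled control. The groups did not overlap, and their log2 difference of 0.76 (limma, standard error 0.07, adjusted p = 6.14e-05) is a 1.70-fold rise. MRPS21 (chromosome 1, 150293861 to 150308979), also of the small subunit, had 9.78, 9.68 and 9.79 in the arrays labelled GLI1 and 9.00, 8.94 and 9.12 in those labelled control. Its log2 difference was 0.73 (limma, standard error 0.10, adjusted p = 0.000511), with no overlap of the groups.

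Among large-subunit genes, MRPL11, whose protein lies at the base of the stalk that receives the translation factors, had the largest rise. Its values were 9.62, 9.38 and 9.43 in the arrays labelled GLI1 and 8.83, 8.73 and 8.88 in those labelled control, a log2 difference of 0.67 (limma, standard error 0.08, adjusted p = 0.000331). MRPL24 averaged 9.08 ± 0.18 in the arrays labelled GLI1 and 8.48 ± 0.15 in those labelled control (SD, n = 3 each). MRPL15 averaged 8.67 ± 0.11 in the arrays labelled GLI1 and 8.07 ± 0.10 in those labelled control (SD, n = 3 each). Both encode proteins with bacterial counterparts, and both rose by a log2 difference of 0.60 (adjusted p = 0.00742 and 0.00176 from limma). MRPS17, the counterpart of another bacterial small-subunit protein, rose by 0.57, MRPL16 by 0.51 and MRPL51, which is mitochondria-specific, by 0.50 (adjusted p = 0.0013, 0.0184 and 0.000838 from limma). MRPL12, the stalk protein that also binds the mitochondrial RNA polymerase, averaged 9.85 ± 0.12 in the arrays labelled GLI1 and 9.48 ± 0.03 in those labelled control (SD, n = 3 each) and rose by 0.37 (adjusted p = 0.00355 from limma). The 13 other genes that rose had log2 differences of 0.19 to 0.43, namely MRPL14, MRPL18, MRPL20, MRPL23, MRPL41, MRPL43, MRPL54, MRPL57, MRPS7, MRPS22, MRPS24, MRPS25 and MRPS27.

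MRPL47 and MRPL49 were the genes that fell in SW1990. MRPL47, whose bacterial counterpart lies near the exit of the tunnel, had 10.31, 10.21 and 10.26 in the arrays labelled GLI1 and 10.72, 10.68 and 10.74 in those labelled control. It fell by 0.45 on the log2 scale (standard error 0.10, adjusted p = 0.0088 from limma). The mitochondria-specific MRPL49 had 9.28, 9.42 and 9.28 in the arrays labelled GLI1 and 9.81, 9.80 and 9.72 in those labelled control, and fell by 0.44 (standard error 0.10, adjusted p = 0.00929 from limma). In both genes all GLI1 arrays lay below all control arrays.

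Both subunits were represented among the rises, where 9.3% of all genes rose in SW1990 and 9.62% fell. Of the large-subunit genes, 14 of 48 rose and 2 fell, with a median log2 difference of 0.11, and of the small-subunit genes 8 of 26 rose and none fell, with a median of 0.085. Placed by structure, the counts of genes that rose were 14 of 50 and 8 of 24, with medians of 0.10 and 0.095. Of the genes with a bacterial counterpart 14 of 42 rose, and of the mitochondria-specific genes 8 of 31. The difference between these classes was not tested.

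Other gene groups moved in the same arrays. All 14 S phase genes measured rose in SW1990 (median log2 difference 0.61), and all 14 interferon-stimulated genes fell (median -4.20). Per array, the median of the interferon-stimulated genes was 6.01, 6.27 and 6.07 in the arrays labelled GLI1 and 10.58, 10.68 and 10.74 in those labelled control. Of the cytosolic ribosomal protein genes 33 of 55 rose and none fell (median 0.24), and of the nuclear genes for respiratory chain subunits 41 of 96 rose and 6 fell (median 0.20). Their part in the rises of the mitochondrial ribosomal protein genes was not tested. Without the control array a, the fewest genes rose, 15, and without S10 or S8 of PANC-1 the most, 23. MRPL16 was no longer called without LIP-1, a or b (adjusted p up to 0.0723), and the methods' t-test called 14 genes higher and no longer MRPL24 (adjusted p = 0.0583).

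In PANC-1, 5 of the 74 genes rose in the arrays labelled GLI1 and none fell. That is 6.76% higher, beside 4.39% of all genes, and 0% lower, beside 5.25%. At an unadjusted p under 0.05, 17 (23.0%) were higher and 6 (8.11%) were lower in the limma fit, beside 12.4% and 11% of all genes. The 5 were MRPS34, MRPS21, MRPS12, MRPL41 and MRPL14, with rises of 1.20- to 1.42-fold. The median log2 difference was 0.045 over the 74 genes and -0.00031 over all genes, with 0.030 over the large-subunit and 0.053 over the small-subunit genes. In 19 genes all GLI1 arrays lay above all control arrays, where 10.9% of all genes did so, and in 1 gene, MRPL49, they lay below, where 11.6% did so.

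MRPS34 (chromosome 16, 1771895 to 1773134), a mitochondria-specific small-subunit gene in which mutations cause Leigh syndrome, had the largest rise. Its values were 10.95, 10.88 and 10.90 in the arrays labelled GLI1 and 10.26, 10.47 and 10.48 in those labelled control (S10, S11 and S8 in this order, here and below). The log2 difference was 0.51 (limma, standard error 0.09, adjusted p = 0.00845), with no overlap of the groups. In SW1990, it had 11.14, 11.05 and 10.80 in the arrays labelled GLI1 and 10.69, 10.75 and 10.86 in those labelled control, with an adjusted p of 0.111 from limma. MRPS21 had 10.98, 10.83 and 10.60 in the PANC-1 arrays labelled GLI1 and 10.30, 10.29 and 10.51 in those labelled control, a log2 difference of 0.43 (standard error 0.10, adjusted p = 0.0207 from limma). MRPS12 had 9.83, 9.83 and 9.95 in the arrays labelled GLI1 and 9.51, 9.48 and 9.45 in those labelled control, a log2 difference of 0.39 (standard error 0.07, adjusted p = 0.00823 from limma).

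MRPL14 (chromosome 6, 44113451 to 44127452), a protein at the face between the subunits, and MRPL41 (chromosome 9, 137551879 to 137552555), which is mitochondria-specific, rose in both lines, and the PANC-1 difference minus the SW1990 difference was 0.00 for each (standard errors 0.07 and 0.08). MRPL14 averaged 9.54 ± 0.02 in the PANC-1 arrays labelled GLI1 and 9.27 ± 0.07 in those labelled control, and 9.20 ± 0.03 in the SW1990 arrays labelled GLI1 and 8.94 ± 0.03 in those labelled control (SD, n = 3 each). Its log2 difference was 0.27 in each line (adjusted p = 0.00969 in PANC-1 and 0.00339 in SW1990 from limma). MRPL41 averaged 9.77 ± 0.03 in the PANC-1 arrays labelled GLI1 and 9.47 ± 0.11 in those labelled control, and 9.88 ± 0.03 in the SW1990 arrays labelled GLI1 and 9.58 ± 0.05 in those labelled control (SD, n = 3 each). Its log2 difference was 0.30 in each line (adjusted p = 0.0127 in PANC-1 and 0.00502 in SW1990 from limma). With MRPS12 and MRPS21 these were the 4 genes called in both lines. None of the 5 was called in PANC-1 when this line was fitted alone or by the methods' t-test. The second of these called no gene at all in PANC-1. The call of MRPS21 in PANC-1 was also lost without LIP, LIP-1, S10 or S11 (adjusted p up to 0.0891), and that of MRPL41 without LIP-1, LIP-2 or S10 (adjusted p up to 0.0539).

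**Figure D2:**
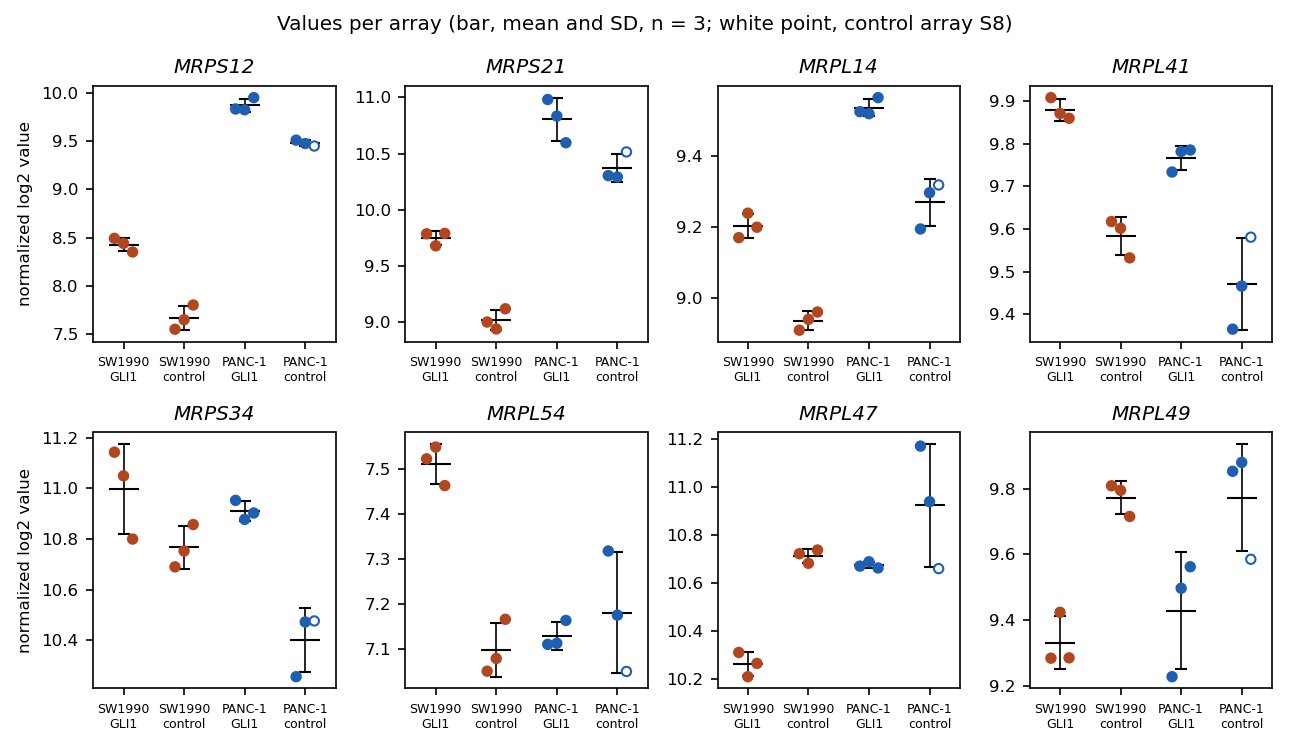
Normalized log2 values of 8 genes on each array, by line and label, with the group mean and SD (n = 3) as a horizontal mark and bar, and the PANC-1 control array S8 as a white point. MRPS12, MRPS21, MRPL14 and MRPL41 lie above their controls in both lines, whereas MRPL54 does so only in SW1990. MRPL47 and MRPL49 lie below their controls in SW1990, and MRPL49 also in PANC-1.

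Most of the mitochondrial ribosomal protein genes were low in S8. Of the 74 genes, 62 were lower in S8 than in the mean of S10 and S11, with a median difference of -0.17, whereas over all genes this median was 0.0080. In 48 genes (64.9%) S8 lay below the other 5 PANC-1 arrays, where 14.8% of all genes did so, and in none did it lie above them. MRPS30 had 9.00 in S10, 8.87 in S11 and 8.28 in S8, and MRPL10 had 8.31, 8.11 and 7.69 in the same order.

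**Figure D3:**
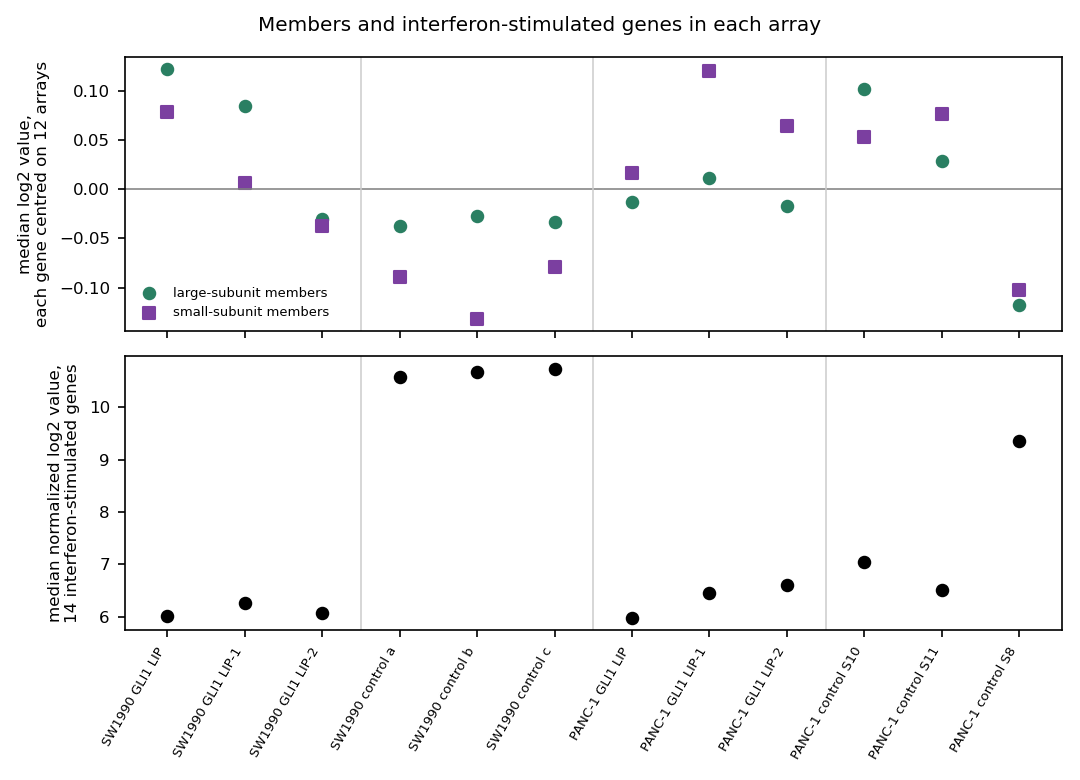
Upper panel, median over the 48 large-subunit and the 26 small-subunit genes of their log2 values on each array, after each gene was centred on its mean over the 12 arrays. Lower panel, median normalized log2 value of 14 interferon-stimulated genes. In S8 both medians of the upper panel lie at or below -0.10 while the interferon-stimulated genes lie at 9.36, against 7.05 in S10 and 6.52 in S11.

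The same array held high values of interferon-stimulated genes. Their median was 5.98, 6.45 and 6.60 in the PANC-1 arrays labelled GLI1, and 7.05, 6.52 and 9.36 in those labelled control. OAS2, a sensor of double-stranded RNA, was 6.25 in S10, 5.49 in S11 and 10.62 in S8. The median of the 14 S phase genes was 9.13 in S10, 9.34 in S11 and 9.52 in S8. Of these S phase genes, 11 rose between the labels in PANC-1 and none fell (median log2 difference 0.51). Left without S8, 12 rose and none fell (median 0.62). The part of either group in the low values of the ribosomal protein genes was not tested.

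Without S8, more genes fell than rose in PANC-1. Then 8 of the 74 genes (10.8%) rose, beside 13.3% of all genes, and 19 (25.7%) fell, beside 11%. The median was -0.028 over the 74 genes, -0.061 over the large-subunit genes and -0.0012 over the small-subunit genes. Of the large-subunit genes 5 rose and 13 fell, and of the small-subunit genes 3 rose and 6 fell. All 5 genes called with S8 were also called without it, joined by MRPL16, MRPL17 and MRPL34. This choice was made after the arrays had been compared, and it leaves 2 control arrays in PANC-1.

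The largest fall without S8 was that of MRPS30, a large-subunit protein despite its name, with 8.32, 8.23 and 8.10 in the arrays labelled GLI1 against 9.00 and 8.87 in S10 and S11. It fell by 0.72 on the log2 scale (standard error 0.08, adjusted p = 0.000142 from limma), whereas with S8 it had a log2 difference of -0.50 with an adjusted p of 0.0622. MRPL10, which anchors the stalk, fell by 0.51 without S8 (adjusted p = 0.000411 from limma). Its values were 7.72, 7.73 and 7.65 in the arrays labelled GLI1. MRPL32, which a protease of the inner membrane cuts before assembly, had 8.31, 8.45 and 8.34 in the arrays labelled GLI1 and 8.88 and 8.76 in S10 and S11. It fell by 0.46 (adjusted p = 0.000831 from limma). MRPL47 and MRPL49, the genes that fell in SW1990, fell in PANC-1 without S8 as well, by 0.38 and 0.44 (adjusted p = 0.00209 and 0.00523 from limma). With S8 their log2 differences were -0.25 and -0.34, with adjusted p-values of 0.154 and 0.0513.

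**Figure D4:**
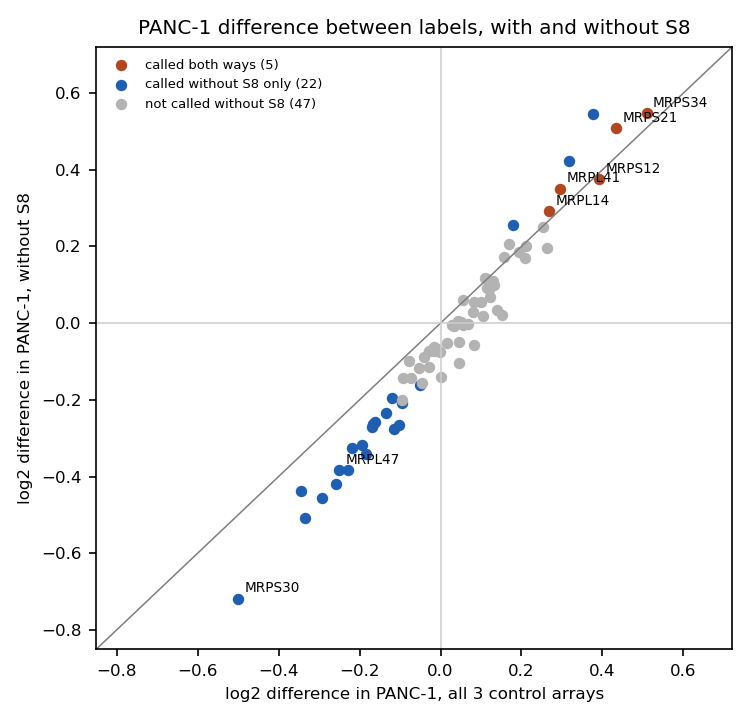
Log2 difference between labels in PANC-1 for the 74 genes, with all 3 control arrays (horizontal axis) and without S8 (vertical axis), with the line of equal values. The 5 genes called with S8 stay at the upper right, and most genes lie below the line, among them MRPS30 at -0.50 and -0.72.

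MRPS18A, MRPS18B and MRPS18C are paralogs of 1 bacterial small-subunit protein. MRPS18A, which lies in the large subunit, averaged 9.80 ± 0.03 in the SW1990 arrays labelled GLI1 and 10.01 ± 0.03 in those labelled control (SD, n = 3 each; adjusted p = 0.141 from limma). It had 9.57, 9.64 and 9.59 in the PANC-1 arrays labelled GLI1 against 9.97, 9.87 and 9.54 in those labelled control. It fell in PANC-1 by 0.32 without S8 (adjusted p = 0.0015 from limma). MRPS18B averaged 9.65 ± 0.07 in the SW1990 arrays labelled GLI1 and 9.56 ± 0.08 in those labelled control (SD, n = 3 each), with an adjusted p of 0.726 from limma. In PANC-1 the log2 difference of MRPS18B was -0.10 with all arrays (adjusted p = 0.738 from limma). Without S8 it fell by 0.27 (adjusted p = 0.0495 from limma). MRPS18C, the paralog that kept the bacterial place, had the lowest mean signal of the 74 genes, 6.16, and log2 differences of 0.00 in SW1990 and 0.11 in PANC-1 (adjusted p = 0.992 and 0.403 from limma). The highest mean signals were those of MRPL45, MRPS34 and MRPS24, and the lowest after MRPS18C those of MRPL13 and MRPL22, although signals of different probe sets do not rank the RNA levels of their genes.

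MRPL54 was the gene whose difference between labels differed between the lines. It had 7.52, 7.55 and 7.46 in the SW1990 arrays labelled GLI1 and 7.05, 7.08 and 7.17 in those labelled control, a rise of 0.41 (standard error 0.07, adjusted p = 0.00167 from limma). In PANC-1 it had 7.11, 7.11 and 7.16 in the arrays labelled GLI1 and 7.32, 7.17 and 7.05 in those labelled control, a log2 difference of -0.05 (standard error 0.07, adjusted p = 0.754 from limma). The PANC-1 difference minus the SW1990 difference was -0.47 (standard error 0.10, adjusted p = 0.0328 from limma). This is 1 gene of 74 with a lower difference in PANC-1 and 0 with a higher one, beside 0.91% and 1.48% of all genes. At an unadjusted p under 0.05 the difference was lower in PANC-1 in 15 genes (20.3%) and higher in 0, beside 7.95% and 8.42% of all genes. The call was lost in 10 of the 12 fits that left out 1 array, all but those without c or without S8, with the array medians centred, and with a and b averaged (adjusted p from 0.000227 to 0.0904 over the alternatives).

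Next to MRPL54 in the test between lines were MRPL15 (-0.60, adjusted p = 0.0512), MRPL11 (-0.46, adjusted p = 0.073), MRPS12 (-0.37, adjusted p = 0.0851) and MRPS17 (-0.43, adjusted p = 0.11, all from limma). In each of them the difference was larger in SW1990, and none passed. Without S8, 16 of the 74 genes had a lower difference in PANC-1 and none a higher one, beside 6.57% and 8.62% of all genes. These 5 genes were among the 16, together with MRPL24, MRPS24, MRPS27, MRPS30, MRPS35, MRPS2, MRPL2, MRPL10, MRPL38, MRPL45 and MRPL50. The median over the 74 genes of the PANC-1 difference minus the SW1990 difference was -0.080 with S8 included. Interferon-stimulated genes, at 10.58 to 10.74 in the SW1990 control arrays, moved with the same arrays, and their part in these differences was not tested.

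The lines also differed from each other within the arrays labelled control. By the labels these cells had been given an empty plasmid, and no array held untreated cells. With exchanged labels they would be the cells given the GLI1 plasmid. In the control arrays, 14 of the 74 genes were higher in SW1990 than in PANC-1 and 20 were lower, which is 18.9% and 27.0%, beside 22% and 18.7% of all genes. The largest differences were those of small-subunit genes. MRPS12 had 7.55, 7.65 and 7.80 in the SW1990 control arrays and 9.51, 9.48 and 9.45 in the PANC-1 control arrays. MRPS12 was thus 3.51-fold lower in SW1990, with a log2 difference of -1.81 (limma, standard error 0.07, adjusted p = 3.8e-09). MRPS21 averaged 9.02 ± 0.09 in SW1990 and 10.37 ± 0.13 in PANC-1 (SD, n = 3 each), or 2.55-fold lower in SW1990 (adjusted p = 6.85e-07 from limma), and MRPS10 9.31 ± 0.04 in SW1990 and 10.46 ± 0.33 in PANC-1, or 2.21-fold lower (adjusted p = 1.88e-05 from limma).

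**Figure D5:**
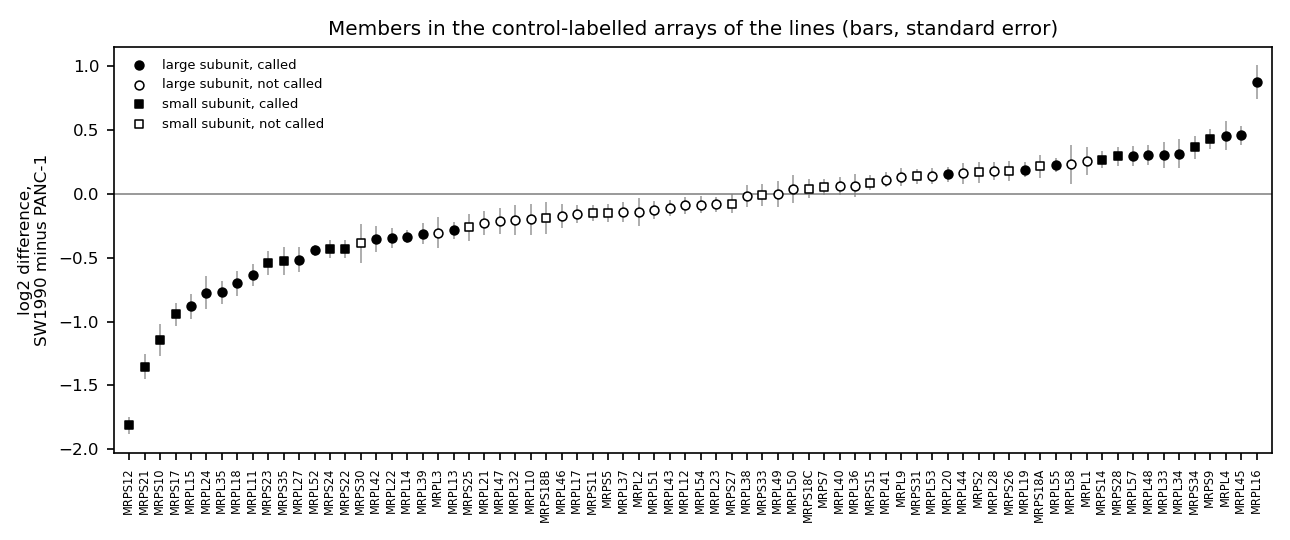
Log2 difference between the control arrays of SW1990 and those of PANC-1 for the 74 genes, ordered by size, with the standard error as a bar, circles for large-subunit and squares for small-subunit genes, and filled symbols for genes called at an adjusted p under 0.05. MRPS12 lies lowest, at -1.81, and MRPL16 highest, at 0.88.

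Several of the genes that rose most in SW1990 were lower in its control arrays than in those of PANC-1. MRPS17 had a log2 difference between the lines of -0.94, MRPL15 of -0.88, MRPL24 of -0.77 and MRPL11 of -0.63 (adjusted p = 5.8e-06, 2.36e-05, 0.000463 and 7.49e-05 from limma). These differences share the SW1990 control arrays with the label comparison, so no relation between both was computed. MRPL16 ran the other way, with 10.19, 10.20 and 10.40 in the SW1990 control arrays and 9.16, 9.27 and 9.72 in the PANC-1 control arrays, a log2 difference of 0.88 (standard error 0.13, adjusted p = 0.000201 from limma). MRPL45, the protein that tethers the ribosome to the inner membrane, MRPL4 at the tunnel wall, and MRPS9 were higher in SW1990 by 0.46, 0.46 and 0.43 (adjusted p = 0.00036, 0.00551 and 0.000736 from limma). MRPS34 was higher by 0.36 (adjusted p = 0.00713 from limma) but was not called with the values as deposited or with the array medians centred (adjusted p = 0.0527 and 0.153). Without S8, 13 genes (17.6%) were higher and 34 (45.9%) lower in SW1990, beside 23.4% and 19.8% of all genes.

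The rest of the mitochondrial translation system was read from lists of genes. Over all genes, 9.3% rose and 9.62% fell in SW1990, and 4.39% and 5.25% did so in PANC-1 (13.3% and 11% without S8). Of 25 measured genes for assembly of the mitochondrial ribosome, 7 rose in SW1990 and none fell, with a median log2 difference of 0.12. In PANC-1, METTL17 was the gene that rose and NSUN4 the gene that fell, by 0.20. Without S8, 3 rose and 6 fell there (median -0.047). TRUB2, a mitochondrial pseudouridine synthase, METTL17, which is needed for small-subunit assembly, and MPV17L2 each rose by 0.48 in SW1990 (adjusted p = 0.0015, 0.00061 and 0.0036 from limma). METTL17 also rose by 0.26 in PANC-1 (adjusted p = 0.034), and by 0.24 without S8 (adjusted p = 0.034). Of 19 genes for mitochondrial aminoacyl-tRNA synthesis, 4 rose in SW1990, with IARS2, the isoleucyl-tRNA synthetase, at 0.61 (adjusted p = 0.00035 from limma), and RARS2 rose in PANC-1 by 0.29 (adjusted p = 0.049 from limma), and by 0.38 without S8. Without S8, 1 of the 19 rose in PANC-1 and 5 fell (median -0.13).

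Of 13 mitochondrial translation factors, the elongation factor gene TSFM rose in SW1990 by 0.22 (adjusted p = 0.026 from limma). The release factor gene MTRF1L fell in both lines, by 0.60 in SW1990 and 0.49 in PANC-1 (adjusted p = 0.0085 and 0.04 from limma), and by 0.66 in PANC-1 without S8, where MRRF, the ribosome recycling factor gene, fell too (by 0.45). Of 4 subunit genes of the mitochondrial ribosome with other symbols, DAP3, a GTP-binding protein of the small subunit, rose in SW1990 by 0.19 (adjusted p = 0.039 from limma). In PANC-1 none of the 4 was called with all arrays, and without S8 PTCD3 fell by 0.18 (adjusted p = 0.035 from limma). Of 10 genes for mitochondrial DNA and its transcription, SSBP1 and TOP1MT rose in SW1990, by 0.37 and 0.18 (adjusted p = 0.0089 and 0.019 from limma). None was called in PANC-1, and without S8 TFB2M, TEFM and TWNK fell there, by 0.43, 0.36 and 0.63.

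Among 8 regulators of mitochondrial genes, GABPA, the ETS factor named above, rose in SW1990 by 0.20 (adjusted p = 0.038 from limma), and the coactivator gene PPARGC1A fell there by 0.69 (adjusted p = 0.0027 from limma). In PANC-1, GABPB1, its partner in the same complex, fell by 0.72 (adjusted p = 0.007 from limma) and MYC by 0.59 (adjusted p = 0.025 from limma). Without S8 they fell by 0.88 and 0.78, and 4 of the 8 regulators fell. The others of these were PPRC1, by 0.68, and YY1, whose motif is described above, by 0.19 (adjusted p = 2.6e-05 and 0.047 from limma). In PANC-1, 15 of the 96 nuclear respiratory chain genes rose and 1 fell (median log2 difference 0.13), and 2 of the 55 cytosolic ribosomal protein genes rose and 1 fell (median 0.063). Without S8, 29 of the 96 rose and 3 fell (median 0.14), and 3 of the 55 rose and 3 fell (median 0.023). No gene of mitochondrial DNA was measured by a probe set of its own, so the RNAs of the mitochondrial ribosome and its products have no value here.

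MRPL46 and MRPS11 are neighbours on chromosome 15, 320 bases apart (88459478 to 88467388 and 88467708 to 88480776). Their log2 differences between labels were -0.22 and 0.06 in SW1990 and -0.16 and 0.12 in PANC-1, and neither gene was called with all arrays. Without S8, MRPL46 fell in PANC-1 by 0.26 (adjusted p = 0.042 from limma). Over the 74 genes, the length of the gene in the genome had a Spearman correlation with the log2 difference of -0.26 in SW1990 and -0.22 in PANC-1, given as a description over genes that share their arrays.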

How the data were processed

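The authors deposited log2 values of 70523 probe sets on 12 arrays, which they had corrected for background and normalized. For the tools, the sources used here give no name. Slides and extraction in the methods differ from those that labels and probe set names give. Array medians differed by 0.133, so quantile normalization over all probe sets was run. Probe sets with 1 gene symbol (23781) were named through the platform annotation and RefSeq, and the probe set of the highest mean was used for each of 22411 genes. Differences were tested with limma 3.58.1 (lmFit and eBayes) in R 4.3.3, with 4 group means and 8 residual degrees of freedom. Calls were made at an adjusted p under 0.05 (Benjamini-Hochberg over all genes). The fit was tested on simulated data. Depth has no counterpart on arrays, whose number limits the precision.

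The members, lists, motifs and rules were chosen with earlier results of these data known. Named genes are, per line, the 10 called members with the largest change, those called in both lines, the 5 smallest p-values between lines, the 5 largest line differences each way, the 3 highest and lowest signals, the MRPS18 paralogs with MRPS30, and up to 3 genes per other list and line. MRPL10, MRPL12, MRPL17, MRPL32, MRPL34, MRPL46, MRPS11, MRRF, PTCD3, TFB2M, TEFM, TWNK, PPRC1, YY1 as a regulator, OAS2 and those said to be so were named after their values were seen. The same holds for members named only to list all genes called in a comparison. Alternatives were the values as deposited, median centring, mean probe sets, each line alone, limma-trend with robust eBayes, array weights, removal of the 30% of genes with the lowest signal, the methods' t-test and each array left out. Averaging the SW1990 control arrays a and b, the closest replicates (SD of their difference 0.0994), was added after seeing the data.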

Additional observations from a re-analysis of the deposited data

Results flagged for a closer look

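MRPL54 was flagged because the difference between the arrays labelled GLI1 and control differed between the lines by the test of that difference itself. The PANC-1 difference minus the SW1990 difference was -0.47 on the log2 scale (limma, adjusted p = 0.0328), with 3 of 3 SW1990 arrays labelled GLI1 above all SW1990 control arrays and overlapping groups in PANC-1. Groups of 3 arrays were not tested for single outlying samples.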

How the results depend on the processing

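Over the alternatives, named genes that were called kept their direction and side of the threshold in 539 fits, lost the call in 37 and reversed in 0, while named genes that were not called gained a call in 24 fits and did not in 220. The count of genes that rose in SW1990 was 22, was 14 by the methods' t-test, and was 15 to 23 with 1 array left out. The count that fell was 2, was 4 with each line fitted alone and with array weights, and was 2 to 4 with 1 array left out, the 4 without S8. In PANC-1, 5 rose, against 0 with the line fitted alone and by the methods' t-test and 19 with array weights, and 3 to 8 with 1 array left out. None fell, against 19 with array weights, 2 without the 30% of genes of lowest signal, and 0 to 19 with 1 array left out, the 19 without S8. Between the control arrays, 14 genes were higher in SW1990, against 8 with array medians centred and by the methods' t-test and 24 with array weights, and 10 to 14 with 1 array left out. There, 20 were lower, against 39 with array weights, and 19 to 34 with 1 array left out, the 34 without S8. The label difference differed between the lines in 1 gene, against 0 with array medians centred and with a and b averaged, 2 without the genes of lowest signal, 22 with array weights, and 0 to 16 with 1 array left out. The median over large-subunit genes was 0.085 to 0.12 in SW1990 and -0.061 to 0.076 in PANC-1 with 1 array left out, and that over small-subunit genes 0.062 to 0.10 and -0.0012 to 0.096. With the values as deposited, the small-subunit median in SW1990 was 0.14. For most of these fits the share over all genes is not given here, so their counts cannot be set against it. The causes of these changes were not tested. No paired analysis was possible because replicate names of the GLI1 and control groups of a line do not match.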

Other observations

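MRPS16, MRPS6 and MRPL30 were measured only by probe sets that also name a neighbour, so their values cannot be given to 1 gene. The probe set of MRPS16 and DNAJC9 averaged 9.99 ± 0.07 in the SW1990 arrays labelled GLI1 and 9.43 ± 0.05 in those labelled control, and 9.95 ± 0.13 in the PANC-1 arrays labelled GLI1 and 9.72 ± 0.04 in those labelled control (SD, n = 3 each). The probe set of MRPS6 and SLC5A3 averaged 7.73 ± 0.12 in the SW1990 arrays labelled GLI1 and 7.39 ± 0.09 in those labelled control (SD, n = 3 each). In PANC-1 it was 8.48, 8.42 and 8.45 in the arrays labelled GLI1 and 7.50, 7.78 and 8.40 in S10, S11 and S8. Of the 3 probe sets of MRPL30 and C2orf15, the brightest averaged 9.88 ± 0.03 in the SW1990 arrays labelled GLI1 and 9.50 ± 0.04 in those labelled control, and 9.39 ± 0.09 in the PANC-1 arrays labelled GLI1 and 9.31 ± 0.03 in those labelled control (SD, n = 3 each).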
